A study of Mus musculus with 12 samples.

Results

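AP-1 and related basic leucine zipper (bZIP) factors were followed in hematopoietic stem cells (HSCs) of mice, which sustain all blood lineages from the bone marrow. The set held 10 genes, Fos, Fosb, Fosl2, Jun, Junb, Jund, Jdp2, Batf, Atf3 and Creb5, of 19935 genes that had a probe set naming a single gene, and each of the 10 was read by 1 such probe set. The genes were chosen by their intensities under estradiol, to place the higher signals of Jdp2 and Creb5 beside the rest of the family. The estradiol values of the 10 genes are therefore a description, with no p-value printed for any gene. Their calls and counts under estradiol only restate the choice and are a description too. The difference between the sexes was not used in that choice and was tested. The 4 groups were females given 2 µg of estradiol (E2, the main estrogen) in 100 µL of corn oil, females given oil alone, males given E2 in oil and males given oil alone, by subcutaneous injection. All mice were 2 to 3 months old. Sorting took 5000 to 7000 HSCs, defined by CD150, c-kit and Sca-1 on the surface and by the lack of CD48 and lineage markers, and the RNA was amplified before hybridisation. Each group had 3 biological replicates from 3 mice, on 1 array each. Neither the strain nor the length of treatment is stated in the labels.

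A bZIP factor binds DNA as a dimer, held together by a zipper of leucines, with a basic region that contacts the DNA. AP-1 is the name for dimers of a JUN protein with a FOS protein or with another JUN protein, while ATF and CREB proteins bind the related cyclic AMP response element (CRE). Fos, Jun and their close relatives are immediate early genes, transcribed within minutes of a growth signal or of stress. JDP2, BATF and ATF3 also pair with JUN proteins, and JDP2 can hold AP-1 sites in a repressed state.

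Promoters are shown for the genes whose values differed most between groups, because they hold the letters that bZIP dimers bind. All 10 genes had a window in the RefSeq table of build GRCm38.p6, 13 windows in all, since Jdp2 has 3 annotated starts and Creb5 has 2. The 250 bases before each start were searched on both strands for TGACTCA (the AP-1 site), TGACGTCA (the CRE), TGACATCA (the variant known from the Jun promoter), TGACG (the first letters of the CRE, which overlap it), the estrogen response element (GGTCA and TGACC with any 3 bases between them), TATAAA (the TATA box core) and the CArG box, the serum response element core. Each line runs 5′ to 3′ toward the start, and capitals mark the matches. Of the 3 Jdp2 windows only that of start 2 held a match. Those of Jdp2 starts 1 and 3 held none and are not printed.
Creb5 start 1 (chr6:53287053-53287302, + strand): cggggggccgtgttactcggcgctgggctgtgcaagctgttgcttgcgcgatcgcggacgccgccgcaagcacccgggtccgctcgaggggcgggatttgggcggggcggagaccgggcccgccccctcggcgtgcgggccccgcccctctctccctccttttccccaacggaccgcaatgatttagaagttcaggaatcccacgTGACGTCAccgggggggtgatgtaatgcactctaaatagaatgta
Creb5 start 2 (chr6:53573124-53573373, + strand): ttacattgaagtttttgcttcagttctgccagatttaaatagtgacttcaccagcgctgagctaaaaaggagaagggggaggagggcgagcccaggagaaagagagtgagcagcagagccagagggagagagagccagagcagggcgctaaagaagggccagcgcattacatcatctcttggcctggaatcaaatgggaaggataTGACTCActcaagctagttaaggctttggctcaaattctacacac
Jdp2 start 2 (chr12:85599166-85599415, + strand): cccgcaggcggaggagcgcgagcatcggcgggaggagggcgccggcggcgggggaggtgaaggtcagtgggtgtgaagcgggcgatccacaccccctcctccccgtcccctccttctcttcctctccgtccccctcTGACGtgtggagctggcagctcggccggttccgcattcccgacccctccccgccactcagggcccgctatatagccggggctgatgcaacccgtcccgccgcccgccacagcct
Fos (chr12:85473640-85473889, + strand): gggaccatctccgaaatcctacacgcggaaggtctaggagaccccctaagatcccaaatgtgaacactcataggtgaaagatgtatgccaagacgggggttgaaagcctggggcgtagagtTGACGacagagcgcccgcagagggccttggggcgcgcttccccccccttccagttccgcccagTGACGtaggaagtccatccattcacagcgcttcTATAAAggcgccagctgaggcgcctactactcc
Jun (chr4:95052223-95052472, - strand): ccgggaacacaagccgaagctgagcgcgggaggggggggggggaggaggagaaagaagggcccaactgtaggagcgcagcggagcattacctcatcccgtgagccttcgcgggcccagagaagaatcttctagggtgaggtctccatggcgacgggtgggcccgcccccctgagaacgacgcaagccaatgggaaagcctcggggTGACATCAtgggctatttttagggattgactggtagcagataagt
Junb (chr8:84978749-84978998, - strand): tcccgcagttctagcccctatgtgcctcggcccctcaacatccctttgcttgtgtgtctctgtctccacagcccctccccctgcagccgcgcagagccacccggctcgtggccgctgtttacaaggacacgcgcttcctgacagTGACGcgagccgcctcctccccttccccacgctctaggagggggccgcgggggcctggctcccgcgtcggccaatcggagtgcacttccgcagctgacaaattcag

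The Creb5 starts differed in the letters they held. The first had the full CRE and the second the AP-1 site, both 45 bases upstream of the start. The AP-1 site was present in 4.46% and the CRE in 1.55% of all 32851 windows of this length. The Jun window held TGACATCA 45 bases upstream, as did 2.93% of all windows at some position. The Fos window held TGACG at 129 and 66 bases upstream and TATAAA, present in 12.4% of all windows, at 33 bases upstream. TGACG was found in 7 of the 13 windows, each of a different gene, and in 17.8% of all windows. The estrogen response element and the CArG box had 0 matches in the 13 windows, against 0.0639% and 1.47% of all windows, which says only that these letters are not in these stretches.

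Values are the deposited linear intensities, and a gene was tested when its mean log2 intensity lay above the median over genes, an intensity of 182. Of the 10 genes 7 lay above this filter. Fos, Fosl2 and Atf3 lay below it, and their fitted values come from a fit of all genes without the filter. Levels are compared only within a gene, since probe sets differ in brightness. Array medians lay between 143 and 159. Xist, made from the inactive X chromosome, had intensities of 3417 to 3897 on female arrays and 61.9 to 73 on male arrays, and the Y-linked Eif2s3y, Kdm5d and Uty read 19.1 to 48.5 on female arrays and 247 to 803 on male arrays, so every array matched its sex label. The 3 female E2 arrays differed more from one another than the arrays of any other group did, replicate 1 the most. Female E2 replicate 1 differed from the mean of the other arrays of its group by 0.30 log2 (root mean square over 9967 genes), the other female E2 arrays by 0.25 and 0.26, and the arrays of the other groups by 0.15 to 0.19. Genes more than 1 log2 away numbered 64, 25 and 46 for female E2 replicates 1, 2 and 3, and 2 to 10 on the arrays of the other groups. Results that rest on female E2 replicate 1, singled out after its values were seen, are given with it and without it.

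**Figure D1:**
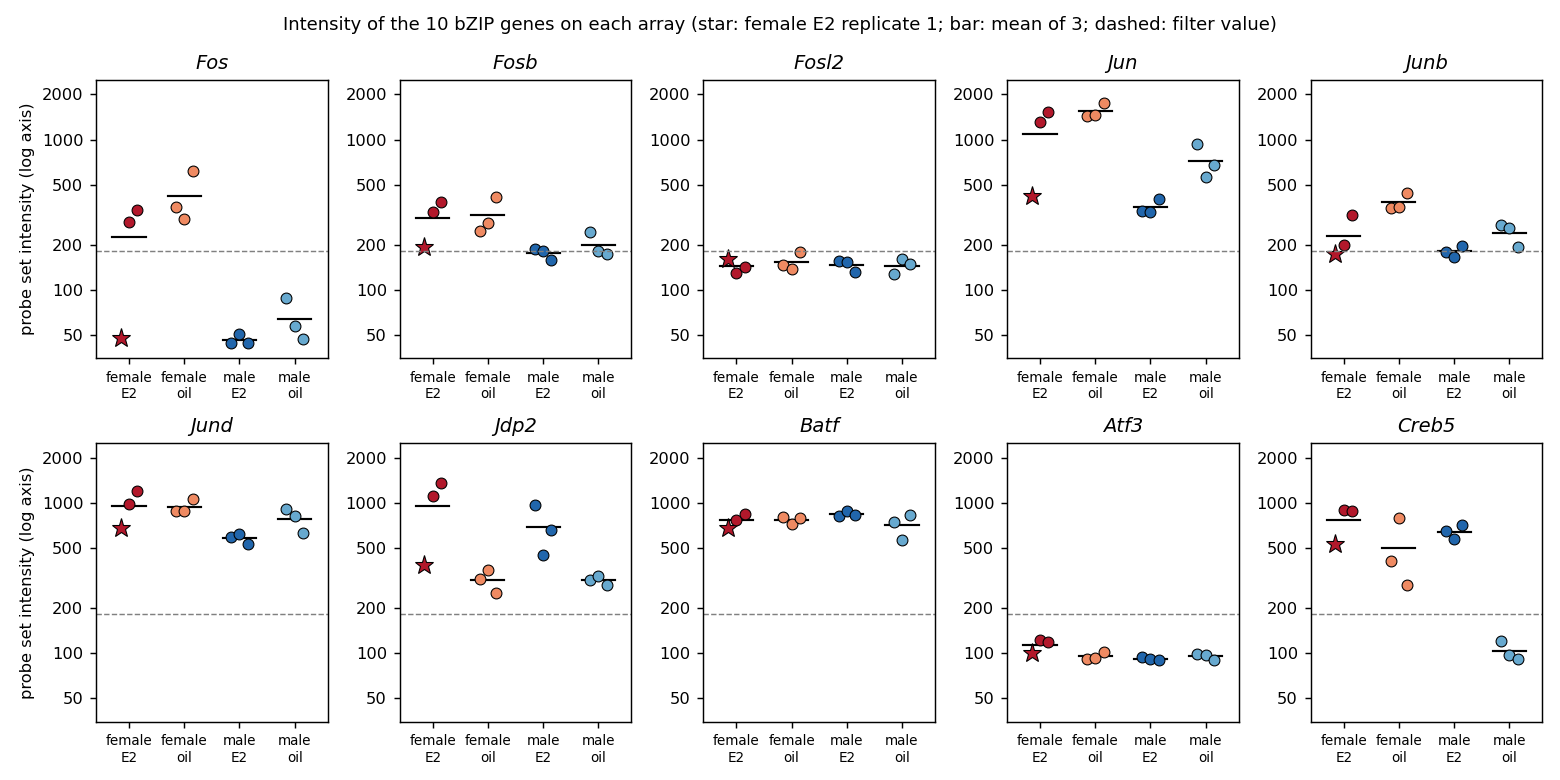
Intensity on a log axis of each of the 10 genes on each of the 12 arrays, by group. Bars are means of 3 arrays, the dashed line is the filter value of 182 and the star is female E2 replicate 1. In the Fos panel the star lies at 48, beside the male arrays, and in the Creb5 panel only the 3 male oil arrays lie below the line.

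Creb5, which encodes a CRE-binding factor that can pair with JUN, was one of the genes whose higher signal under E2 had chosen the set. It read 535, 892 and 883 in E2-treated females, against 411, 797 and 286 in oil-treated females. It read 646, 573 and 712 in E2-treated males, against 119.7, 96.6 and 91.8 in oil-treated males. All male E2 arrays were far above all male oil arrays, whereas the female groups overlapped through oil replicate 2. The log2 fold change, E2 over oil, was 0.72 ± 0.29 in females and 2.64 ± 0.29 in males (SE, n = 3 per group), and the female change minus the male change was -1.92 ± 0.41. The male oil level lay below the filter value of 182 but above the 19.1 to 48.5 that Y-linked genes read on female arrays; no background level was measured. The female value depended on single oil arrays, at 1.13 without oil replicate 2 and 0.39 without oil replicate 3. In bulk samples such as these, fewer cells of a type and less RNA per cell cannot be told apart.

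Jdp2, which encodes the JUN dimerization protein, was the other such gene. It read 386, 1108 and 1348 in E2-treated females, against 313, 358 and 250.2 in oil-treated females. It read 975, 449 and 663 in E2-treated males, against 305, 327 and 285 in oil-treated males. The groups did not overlap in either sex, and the E2 arrays spread widely while the oil arrays of both sexes lay close together. The log2 fold change was 1.45 ± 0.37 in females and 1.11 ± 0.37 in males (SE, n = 3 per group). Without female E2 replicate 1, the lowest E2 array, the female value was 2.00 ± 0.24.

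All JUN genes of the set had lower mean intensities under E2 in males, and Jun and Junb also in females. Jun, the founding member of the family, read 419.8, 1303 and 1520.5 in E2-treated females, against 1445, 1460.2 and 1755 in oil-treated females. It read 335, 329 and 403 in E2-treated males, against 930.3, 566 and 675 in oil-treated males. The male groups did not overlap and the female groups did. The log2 fold change was -0.72 ± 0.35 in females and -1.0 ± 0.35 in males (SE, n = 3 per group). The female value came mostly from 1 array, and without female E2 replicate 1 it was -0.14 ± 0.18.

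Junb, which encodes a JUN protein that can counter JUN, read 173, 199 and 315 in E2-treated females, against 353, 358 and 443 in oil-treated females. It read 178, 166 and 196 in E2-treated males, against 269, 257 and 192 in oil-treated males. The female groups did not overlap, and the male groups did through oil replicate 3. The log2 fold change was -0.79 ± 0.19 in females and -0.40 ± 0.19 in males, and the female value was -0.61 ± 0.19 without female E2 replicate 1. Jund, the JUN gene with the steadiest expression in resting cells, read 676, 985 and 1204 in E2-treated females, against 883, 881 and 1061 in oil-treated females. It read 589.9, 623 and 536 in E2-treated males, against 908, 812 and 626 in oil-treated males. Its male groups did not overlap, though the nearest values were 623 under E2 and 626 under oil, while its female groups overlapped. The log2 fold change was -0.01 ± 0.18 in females and -0.41 ± 0.18 in males.

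Fos, which encodes the classic immediate early partner of JUN, read 48, 284 and 341 in E2-treated females, against 355, 296 and 617 in oil-treated females. It read 44, 50.6 and 44.4 in E2-treated males, against 88.6, 57.2 and 47.2 in oil-treated males. All male arrays lay far below 182, and of the female arrays only E2 replicate 1 did. The female log2 fold change was -1.26 ± 0.55 with all arrays and -0.37 ± 0.29 without that one. Fosb, another early-induced FOS gene, read 192 to 382 in E2-treated and 247 to 417 in oil-treated females, and 158 to 186 in E2-treated and 174 to 243 in oil-treated males. Fosl2, which encodes FRA-2, read 129 to 160.1 in E2-treated and 138 to 178 in oil-treated females, and 131 to 156 in E2-treated and 127 to 159.8 in oil-treated males. The E2 and oil ranges of both genes overlapped in each sex, and the log2 fold change of Fosb was -0.08 ± 0.24 in females and -0.17 ± 0.24 in males.

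Batf, which encodes a partner of JUN proteins and of interferon regulatory factors in lymphocytes, read 685 to 845 in E2-treated and 719.8 to 800.2 in oil-treated females, and 820.2 to 888 in E2-treated and 564 to 826 in oil-treated males. Atf3, a stress-induced ATF gene, read 100.1 to 122 in E2-treated and 92.2 to 102 in oil-treated females, and 90.6 to 94.7 in E2-treated and 90.4 to 99.1 in oil-treated males. Batf lay well above 182 and Atf3 below it on every array, and the E2 and oil ranges of both overlapped in each sex. The log2 fold change of Batf was -0.01 ± 0.13 in females and 0.27 ± 0.13 in males.

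**Figure D2:**
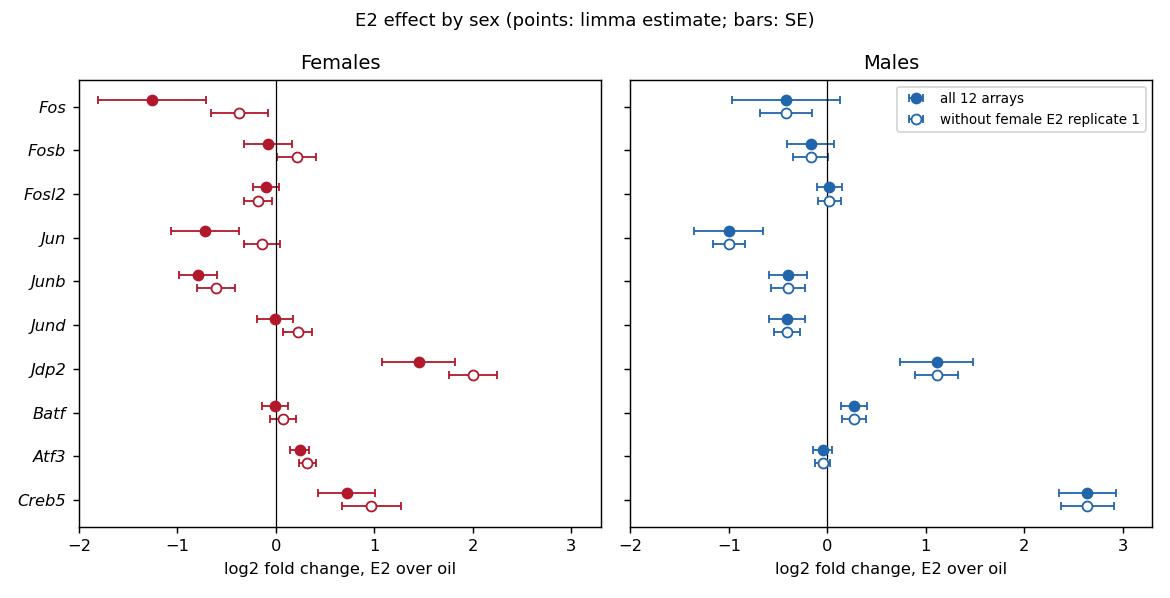
Log2 fold change, E2 over oil, of each of the 10 genes in females and in males, with SE from the limma fit (n = 3 per group); filled points use all 12 arrays and open points leave out female E2 replicate 1. With all arrays Jdp2 lies at 1.45 in females and 1.11 in males, Creb5 at 0.72 and 2.64, and Jun at -0.72 and -1.0.

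The counts over the set follow from how it was chosen and are given beside the share over all genes tested. At an adjusted p under 0.05 by limma, 2 of the 7 genes above the filter were called in females (Jdp2 higher, Junb lower), where 3.56% of all genes were called, and each of these calls held in 3 of 12 fits that left out 1 array. In males 1 of 7 was called (Creb5, higher), where 1.43% of all genes were. Averaged over the sexes, 4 of 7 were called (Jdp2 and Creb5 higher, Jun and Junb lower), against 8.9% of all genes. The averaged log2 fold changes were 1.28 ± 0.26 for Jdp2, 1.68 ± 0.21 for Creb5, -0.86 ± 0.25 for Jun and -0.59 ± 0.14 for Junb. Jun stood at -0.57 ± 0.12 without female E2 replicate 1, and its call held in 3 of 12 fits that left out 1 array. Groups did not overlap for 2 of the 10 genes in females (17.2% of all 19935 genes) and for 4 of 10 in males (18.1%).

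**Figure D3:**
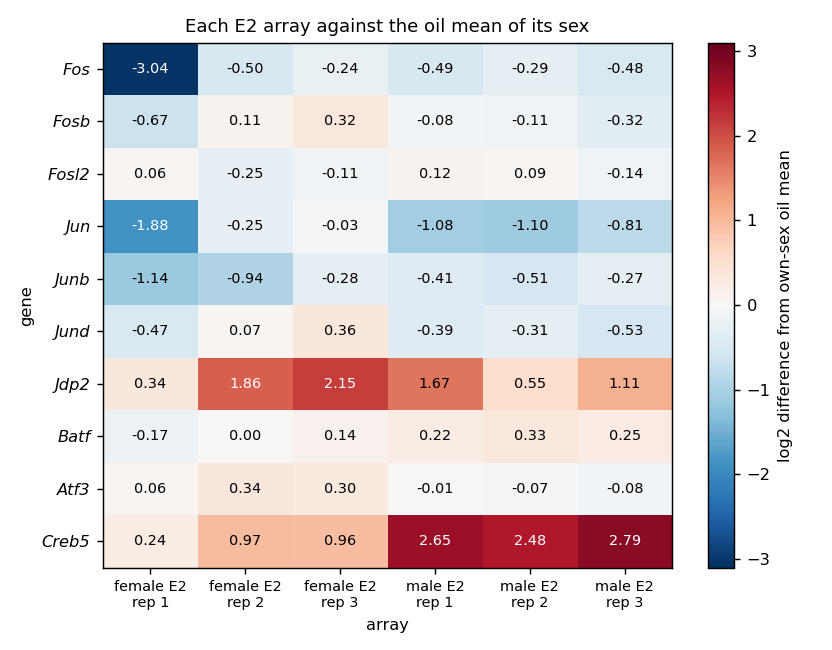
Log2 intensity of each E2 array minus the mean of the oil arrays of the same sex, for each gene (rows) and array (columns), as colour and number. Female E2 replicate 1 lies at -3.04 for Fos, -1.88 for Jun and 0.34 for Jdp2, while the other female E2 arrays lie at -0.50 and -0.24 for Fos, -0.25 and -0.03 for Jun, and 1.86 and 2.15 for Jdp2.

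The sexes were then compared over both treatments. Fos, Jun, Fosb, Junb, Jund and Creb5 had higher mean intensities in females than in males, but with all 12 arrays no difference passed the threshold. Of the 7 genes above the filter, 0 were called by limma, where 0.0401% of all genes were called, and 5 had an unadjusted p under 0.05, as did 8.41% of all genes. The female minus male log2 difference was 2.25 ± 0.39 for Fos (limma adjusted p = 0.145), 1.27 ± 0.25 for Jun (0.158) and 1.18 ± 0.21 for Creb5 (0.114), with 6 arrays per sex. It was 0.68 ± 0.17 for Fosb (limma adjusted p = 0.334), 0.49 ± 0.14 for Junb (0.347) and 0.48 ± 0.13 for Jund (0.347). Jdp2 differed by 0.16 ± 0.26 (limma adjusted p = 0.903) and Batf by -0.01 ± 0.09 (0.985). The median over the 7 genes was 0.49, beside -0.02 over all genes tested. For Creb5 the E2-treated sexes overlapped, and the oil-treated females (286 to 797) lay above the oil-treated males (91.8 to 119.7).

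The calls changed when single arrays were left out. Without female E2 replicate 1, 4 of the 7 genes were called higher in females, where 0.15% of all genes were called higher. Jun differed by 1.56 ± 0.12 (limma adjusted p = 4.35e-05), Creb5 by 1.31 ± 0.20 (0.0195), Fosb by 0.83 ± 0.13 (0.0272) and Jund by 0.59 ± 0.10 (0.0376). In the fit without the filter, where 0.0502% of all genes were called higher, Fos differed by 2.70 ± 0.19 (limma adjusted p = 4.77e-05). The male E2 arrays read Fos at 44 to 50.6, about the level of Y-linked genes on female arrays, so the size of this difference is uncertain. Of the 10 genes, the fit without the filter called Fos and Jun higher, and did not call Fosb, Jund or Creb5. Every remaining female array was above every male array for Fos, Fosb and Jun, which 0.341% of all genes also showed. The array left out held the lowest female value of each of these genes (48, 192 and 419.8). It was singled out after its values were seen. The separation and the p-values without it are therefore a description and no independent test. Junb (0.58 ± 0.13, limma adjusted p = 0.0825) and Jdp2 (0.44 ± 0.16, adjusted p = 0.26) did not pass. Creb5 was also called without female oil replicate 2 (0.98, limma adjusted p = 0.0402) and without female oil replicate 3 (1.35, adjusted p = 0.0173). The calls of Fos, Jun, Fosb and Jund each held in only 1 of the 12 fits that left out 1 array. Other genes moved with the sex difference in the fit without female E2 replicate 1. Dusp1 (1.07 ± 0.10, limma adjusted p = 0.000178), Ier2 (0.65 ± 0.08, 0.00236), Zfp36 (0.57 ± 0.07, 0.00236) and Egr1 (0.74 ± 0.13, 0.0384), all early genes, were also called higher in females. They were 3 of 14 tested immediate early genes outside the bZIP family and 1 of 25 tested kinases, phosphatases and upstream factors of AP-1. With all 12 arrays 0 genes of either list were called. Without female E2 replicate 1, 9 granulocyte markers were tested and 9 of 9 were above 0, at 0.08 to 1.63, as were 39% of all genes. Of these markers 0 were called by limma, with 3 at an unadjusted p under 0.05. With all 12 arrays 8 granulocyte markers were tested, 4 of 8 were above 0 and their median was 0.06. The part of these markers in the sex difference was not tested. With an array left out, the comparison is no longer exactly independent of the E2 contrasts that chose the set.

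**Figure D4:**
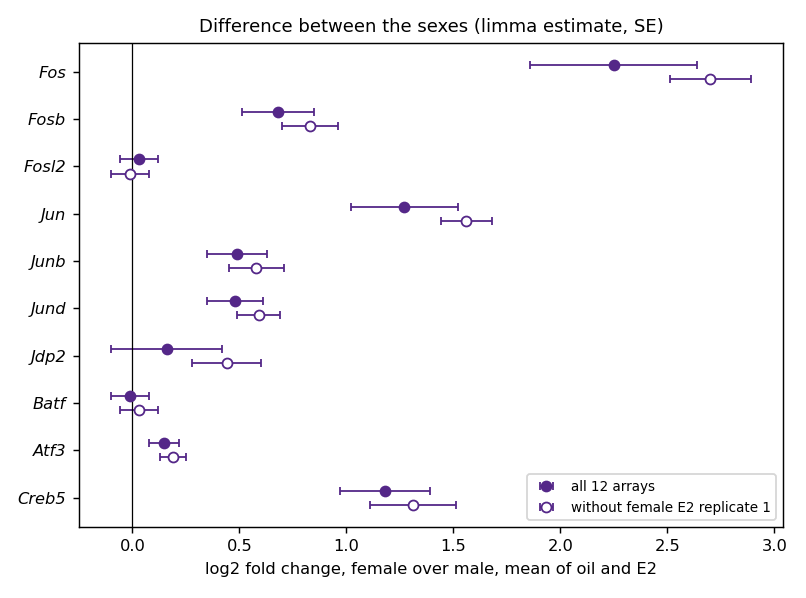
Female minus male log2 difference, averaged over treatment, of each gene with SE, with all 12 arrays (filled) and without female E2 replicate 1 (open). Fos lies at 2.25 and 2.70, Jun at 1.27 and 1.56, and Jdp2 at 0.16 and 0.44.

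Genes with the pattern most like Jdp2 and Creb5 were found by the root mean square difference of centred log2 values over the 12 arrays. Nearest to Jdp2 were Rasa4 (0.17), a Ras GTPase-activating protein, Arntl (0.26), the circadian clock factor BMAL1, Col1a2 (0.29), a collagen chain, Htra3 (0.30), a serine protease, and Sema4a (0.31), a semaphorin. Rasa4 read 186, 409.8 and 602 in E2-treated females, against 163, 162 and 150.2 in oil-treated females. It read 396, 216 and 297 in E2-treated males, against 124, 144 and 138 in oil-treated males, so its high and low E2 arrays were those of Jdp2. Nearest to Creb5 were Slc16a12 (0.43), Myl10 (0.43), Chad (0.56), Ern1 (0.61) and Gbp11 (0.65), at larger distances. Slc16a12, a monocarboxylate transporter, read 471, 404 and 706 in E2-treated females, against 252, 260.1 and 176 in oil-treated females. It read 468, 356 and 521 in E2-treated males, against 56.4, 96.5 and 65.1 in oil-treated males, the lowest group as for Creb5.

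Fos, Jdp2 and Batf lie next to each other on chromosome 12, in the order of protein-coding genes Tmed10, Fos, Jdp2, Batf, Flvcr2. The averaged log2 fold change under E2 was 1.28 ± 0.26 for Jdp2, beside -0.84 ± 0.39 for Fos (-0.39 ± 0.19 without female E2 replicate 1) and 0.13 ± 0.09 for Batf. Of the outer neighbours, neither passed the test: Tmed10, a vesicle trafficking gene, stood at -0.03 ± 0.06 (limma adjusted p = 0.781), and Flvcr2, a transporter below the filter, at 0.32 ± 0.12 (limma adjusted p = 0.19).

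Related genes were compared in the E2 contrast averaged over the sexes, in which the median over all genes tested was -0.01 and 8.9% of all genes were called, 3.12% higher and 5.78% lower. The related lists and the cell type markers below were chosen with earlier results of these data known. Their counts and p-values under E2 therefore describe these data and are not independent tests. Of 19 other AP-1, ATF and CREB genes, 14 were tested and 0 were called by limma, with 2 at an unadjusted p under 0.05 and a median log2 fold change of -0.01. Of 22 other bZIP genes 16 were tested, and 1 rose and 1 fell, with a median of -0.06. Cebpa, which drives myeloid differentiation, rose by 0.80 ± 0.15 (limma adjusted p = 0.00595), and Nfe2, a factor of the erythroid and megakaryocyte lineages, fell by 0.22 ± 0.05 (limma adjusted p = 0.017). Nfil3, below the filter and named after its values were seen, read 261, 434 and 271 in E2-treated females, against 137, 113 and 107 in oil-treated females. It read 183, 177 and 192 in E2-treated males, against 73.3, 75.4 and 139 in oil-treated males. It rose by 1.2 ± 0.16 in the fit without the filter (limma adjusted p = 0.00181).

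Among kinases, phosphatases and upstream factors of AP-1, 25 of 34 were tested, 1 rose and 2 fell, with a median of 0.03. Dusp6, an ERK phosphatase, rose by 0.38 ± 0.09 (limma adjusted p = 0.0183), a call that held in 9 of 12 fits that left out 1 array. Dusp1, which inactivates JNK and p38 and is itself an early gene, fell by 0.85 ± 0.21 (limma adjusted p = 0.024), a call that held in 6 of those 12 fits and was lost without the filter. Dusp4, another phosphatase of these kinases, fell by 0.26 ± 0.07 (limma adjusted p = 0.0436), but its call held in only 2 of the 12 fits and under 3 of 9 other settings. The share called in this list, 3 of 25, is near that of all genes. Dusp1 read 426, 1233 and 1141 in E2-treated females, against 1386, 1402 and 1708 in oil-treated females. It read 415, 574 and 422 in E2-treated males, against 949.6, 827 and 812 in oil-treated males, with female E2 replicate 1 again at the level of the E2-treated males. Of 26 genes known to be driven by AP-1 in some cell type, 14 were tested, 2 rose and 0 fell, with a median of 0.01. Those were Thbs1, a matrix glycoprotein (2.96 ± 0.32, limma adjusted p = 0.000128), and Itgam, an integrin of myeloid cells (2.88 ± 0.26, limma adjusted p = 2.89e-05). Both were listed with earlier results of these data known, so their count and p-values are a description and no independent test.

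Immediate early genes outside the bZIP family included several that fell. Of 20 such genes 14 were tested, 6 fell and 0 rose, with a median of -0.17. Egr1, a zinc finger factor, fell by 1.30 ± 0.13 (limma adjusted p = 6.59e-05), Ier2 fell by 0.72 ± 0.12 (0.00224), Ier3 fell by 0.65 ± 0.11 (0.00276) and Zfp36, an mRNA decay factor, fell by 0.46 ± 0.09 (0.00937). Egr1 read 404, 524 and 576 in E2-treated females, against 1195, 1121 and 1277 in oil-treated females. It read 258, 294 and 379 in E2-treated males, against 983, 789 and 587 in oil-treated males, without overlap in either sex and with no E2 array apart from the rest.

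**Figure D5:**
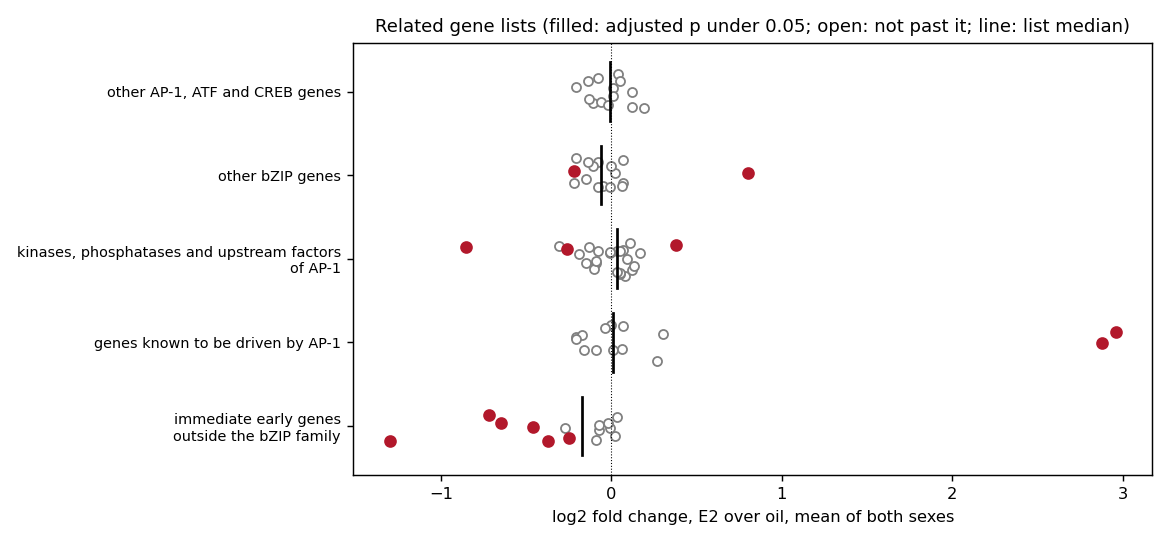
Log2 fold change, E2 over oil averaged over the sexes, of the tested genes of each related list; filled points passed an adjusted p of 0.05, open points did not, and the line is the list median. Egr1 lies lowest among the immediate early genes at -1.30, and Itgam and Thbs1 lie at 2.88 and 2.96 in the list of genes driven by AP-1.

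Cell type markers moved in the same contrast, and their part in these results was not tested. Of all genes tested, 3.12% were called higher and 5.78% lower in it. Of 10 HSC markers 8 were tested, and 4 fell (Kit, Procr, Gata2 and Cd34). Their summed intensity was 9871 to 11048 in E2-treated and 11814 to 12362 in oil-treated females, and 10909.8 to 11489 in E2-treated and 12528 to 12913 in oil-treated males. Of 10 monocyte and macrophage markers 8 had a probe set and 3 were tested, of which Itgam rose, and Csf1r, Cd14, Adgre1 and Fcgr1 lay below the filter. Ccr2, also below the filter, rose by 0.58 ± 0.14 in the fit without it (limma adjusted p = 0.0449). In the fit without the filter 7 of the 8 markers were above 0, as were 54.4% of all genes. Their sum was 2844 to 4287 in E2-treated and 2659 to 3081 in oil-treated females, and 2955 to 3741 in E2-treated and 2419.9 to 2879 in oil-treated males, so it was higher under E2 without overlap in males. Without Itgam the sum was 2111 to 2432 in E2-treated and 2504 to 2881 in oil-treated females, and 2257 to 2676 in E2-treated and 2341 to 2715 in oil-treated males. It was then lower under E2 without overlap in females, and the male ranges overlapped. Lyz2, the largest part of that sum, read 1243, 1262 and 1426 in E2-treated females, against 2149, 1791 and 1766 in oil-treated females. In females 7 of the 8 markers, all but Lyz2, were above 0 in the fit without the filter, as were 56.5% of all genes. Megakaryocyte markers fell for 4 of 6 tested and rose for 1, and their sum was 2147 to 3025 in E2-treated and 3579 to 3907 in oil-treated females, and 2828 to 3142 in E2-treated and 3579 to 3981 in oil-treated males. Lymphocyte markers fell for 2 of 3 tested. Their sum was 1159 to 1271 in E2-treated and 1611 to 1857 in oil-treated females, and 1212 to 1303 in E2-treated and 1682 to 1880 in oil-treated males. Granulocyte markers fell for 1 of 8 tested. Of the erythroid markers 1 of 2 tested (Tfrc) rose, as did 1 of 3 tested stroma markers (Col1a2).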

How the data were processed

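Affymetrix Mouse Gene 1.0 ST arrays measured RNA of 12 HSC samples, amplified with a WTA kit per the labels' protocols. The values are intensity on a linear scale, 1 per probe set, as deposited by the authors; the summarisation and normalization software is not given in the sources used here; precision is bounded by having 3 arrays per group. Of 35474 probe sets, 21780 had 1 gene symbol, 1605 several and 12089 none in the platform annotation; only the first were used, and each gene took its probe set of highest mean. log2(intensity + 1) was fitted with limma 3.58.1 in R 4.3.3, 1 mean per group over all 12 arrays, with eBayes (8 residual and 5.38 prior degrees of freedom). Genes above the median of gene means (log2 7.52) were tested, 9967 in all, with Benjamini-Hochberg adjustment within each contrast and calls at an adjusted p under 0.05. The fit was tested on simulated data. The samples are labelled as biological replicates of 3 mice per group. The p-values weigh differences between group means against the spread between arrays within groups.

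The 10 genes and all lists (other AP-1, ATF and CREB genes; other bZIP genes; kinases, phosphatases and upstream factors; genes driven by AP-1; immediate early genes; HSC, monocyte and macrophage, granulocyte, erythroid, megakaryocyte, lymphocyte and stroma markers) were chosen with earlier results of these data known. Genes named were the 10, up to 4 called genes of smallest p per related list, the 5 genes nearest in pattern to Jdp2 and to Creb5, chromosomal neighbours and sex-label genes. Promoter windows were searched in Python 3.11.15. Alternatives covered normalization, offset, filter, probe set choice, variance model, array weights, a replicate block, the compared groups alone and leaving out each array.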

Additional observations from a re-analysis of the deposited data

Results flagged for a closer look

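Myl10, a myosin light chain and one of the genes nearest in pattern to Creb5, differed between the sexes in its change under E2: the female change minus the male change was -2.75 on the log2 scale, and it was the 1 gene of 9967 called by limma in that test. It read 2959.6, 3493 and 3831 in E2-treated females, against 2102, 2547 and 1620.3 in oil-treated females, and 3421, 2961 and 3251 in E2-treated males, against 232, 324 and 315 in oil-treated males. The groups did not overlap in either sex, and the male oil arrays were the lowest.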

How the results depend on the processing

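The E2 counts of the 10 genes restate how they were chosen, and their range says nothing of stability. Averaged over the sexes, 3 to 4 of the 7 genes were called with 1 array left out and 3 to 4 under the other settings. In males the count of 1 became 3 with array weights and with the compared groups alone, and 1 to 3 with 1 array left out. In females the count of 2 became 1 with quantile normalization, trend and robust variances or array weights, 0 without the filter, with a filter at the 25th percentile, with the replicate block or with the compared groups alone, and 0 to 1 with 1 array left out. Between the sexes the count of 0 became 2 with array weights (Jun and Creb5) and 0 to 4 with 1 array left out. For the difference in response it was 0 to 0, and for the related lists the count of 13 was 9 to 18. Over all genes the sex contrast gave 4 calls, 11 with array weights, 7 without the filter, 2 with the replicate block and 21 without female E2 replicate 1. For E2 in males 143 calls became 409 with array weights, 390 with the compared groups alone and 80 without the filter; in females 355 became 226, 67 and 183. Averaged, 887 became 568 without the filter. With 1 array left out these counts lay between 62 (male E2 replicate 3) and 327 (female E2 replicate 1) in males, between 115 (female oil replicate 2) and 549 (female E2 replicate 1) in females, and between 476 (female oil replicate 2) and 1147 (female E2 replicate 3) averaged. Median centring gave 45 higher of 403 calls in females, against 81 of 355. No direction of a called value reversed; the causes of these shifts were not tested.

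Deviations of same-numbered arrays from their group means had correlations of -0.26 to 0.20, with 2 of 18 above 0.1. These were female oil with female E2, at 0.20 for replicate 1 and 0.17 for replicate 2. Taken from means of 3 arrays, such deviations cannot show whether same-numbered arrays shared a batch. With the replicate block 3 of 7 genes were called in the averaged contrast. Low signal, under 182, limits Fosl2 and Atf3 on all arrays, Fos in males and in female E2 replicate 1, and Creb5 in oil-treated males. It also limits Junb in female E2 replicate 1 (173) and in male E2 replicates 1 and 2 (178 and 166). Fosb lay under 182 in male E2 replicate 3 (158) and in male oil replicates 2 and 3 (181 and 174).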
